A study of Mus musculus with 8 samples.

Results

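The high mobility group genes Hmgb1, Hmgb2 and Hmgn1 and the receptor gene Ager were read in the conjunctiva of mice under desiccating stress (DS), which models dry eye. They are the 4 rows carrying these symbols among the 248 genes of the nCounter Mouse Inflammation panel. All 4 were found, and none was removed by a filter on low values. The mice were female C57BL/6J animals of 8 weeks, and all of them spent 5 days in a drafty room of low humidity under scopolamine, which blocks tear secretion. In the tributyrin group 4 mice were gavaged daily with tributyrin, a triglyceride from which the gut releases butyrate, and in the vehicle group 4 mice were gavaged with PBS. Unstressed mice were not analysed here, so each comparison is between mice that were all stressed. Each mouse gave 1 value per gene, a count of fluorescent barcoded probes bound to the transcript, which the authors scaled to reference genes and deposited as log2. Whole conjunctival tissue was used, and in such bulk RNA fewer cells of a type and less RNA per cell cannot be told apart.

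Hmgb1 and Hmgb2 are nuclear proteins that bend DNA through their HMG boxes, and Hmgn1 binds nucleosomes and loosens chromatin. When cells die or are stressed these proteins can leave the nucleus and act as alarmins, signals of damage that alert immune cells. Ager encodes RAGE, a cell surface receptor of the immunoglobulin superfamily that binds HMGB1, S100 proteins and glycated proteins and signals to NF-kB and MAP kinases. HMGB1 also acts through TLR2, TLR4 and TLR9, and extracellular HMGN1 acts through TLR4. The alarmin function depends on release of protein, which a transcript count does not measure.

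The 4 genes have unlike promoters, and the 250 bases before each start site are shown because the abundant genes and the receptor differ in them. They are RefSeq sequences of GRCm38.p6, on the strand of the gene, and capitals mark CCAAT or its complement ATTGG. This pentamer, known as the CCAAT box, is a promoter element that the factor NF-Y binds in many genes.
Hmgn1, chr16:96127726-96127975, minus strand: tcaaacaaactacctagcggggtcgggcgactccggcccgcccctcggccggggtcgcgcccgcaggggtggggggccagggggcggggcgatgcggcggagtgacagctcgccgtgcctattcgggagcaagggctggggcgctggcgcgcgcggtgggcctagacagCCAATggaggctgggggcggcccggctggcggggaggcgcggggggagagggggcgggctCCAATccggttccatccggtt
Hmgb1, chr5:149053058-149053307, minus strand: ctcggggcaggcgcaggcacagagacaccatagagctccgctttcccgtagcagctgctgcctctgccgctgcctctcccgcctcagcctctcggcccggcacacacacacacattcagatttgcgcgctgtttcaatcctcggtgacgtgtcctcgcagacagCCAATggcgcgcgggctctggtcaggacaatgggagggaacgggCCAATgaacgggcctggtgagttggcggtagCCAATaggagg
Hmgb2, chr8:57511593-57511842, plus strand: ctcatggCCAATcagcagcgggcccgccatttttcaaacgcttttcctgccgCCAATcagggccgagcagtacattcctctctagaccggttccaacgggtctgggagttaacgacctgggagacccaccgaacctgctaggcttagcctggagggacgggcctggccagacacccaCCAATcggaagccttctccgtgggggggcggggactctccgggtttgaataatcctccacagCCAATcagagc
Ager, chr17:34597600-34597849, plus strand: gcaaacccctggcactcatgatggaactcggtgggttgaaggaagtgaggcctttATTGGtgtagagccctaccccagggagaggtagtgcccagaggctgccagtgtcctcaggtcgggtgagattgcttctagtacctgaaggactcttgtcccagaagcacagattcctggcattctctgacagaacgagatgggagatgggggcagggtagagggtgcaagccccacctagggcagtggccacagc

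The 3 alarmin promoters carried more CpG dinucleotides than the receptor's, with 30 in Hmgn1, 19 in Hmgb1 and 14 in Hmgb2, against 3 in Ager and a median of 6 over 27025 promoter windows of the same length, 1 per gene. At least as many were found in 5.64% of the windows for Hmgn1, 19.5% for Hmgb1 and 29.5% for Hmgb2. No more than the 3 of Ager were found in 38.1%. The motif CCAAT, searched on both strands, occurred 4 times in Hmgb2, 3 times in Hmgb1, 2 times in Hmgn1 and once, as ATTGG, in Ager. At least 4 matches were found in 0.918% of all windows, at least 3 in 2.98%, at least 2 in 10.5% and any match in 34.5%. Of the 27025 windows 13.0% held TATAAA on either strand, and none of the 4 did. These matches describe the letters only, and no factor was measured at these sites.

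Hmgn1 and Hmgb1 were among the most abundant transcripts measured in the stressed conjunctiva, Hmgb2 lay near the middle of the panel and Ager below it. A count was compared between genes without division by transcript length, since the platform counts bound probes and not fragments, but probes differ in efficiency and the order of 2 genes can therefore shift with the probe. The normalized count of Hmgn1 averaged 35566 ± 955 over mice (SD, n = 8) and ranked 7 of 248. Hmgb1 had 17619.7 ± 585 (SD, n = 8) and ranked 16. Hmgb2 had 334 ± 36.6 (SD, n = 8), at rank 121, and Ager had 95.4 ± 11.2 (SD, n = 8), at rank 145. The panel median was 298 normalized counts.

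**Figure D1:**
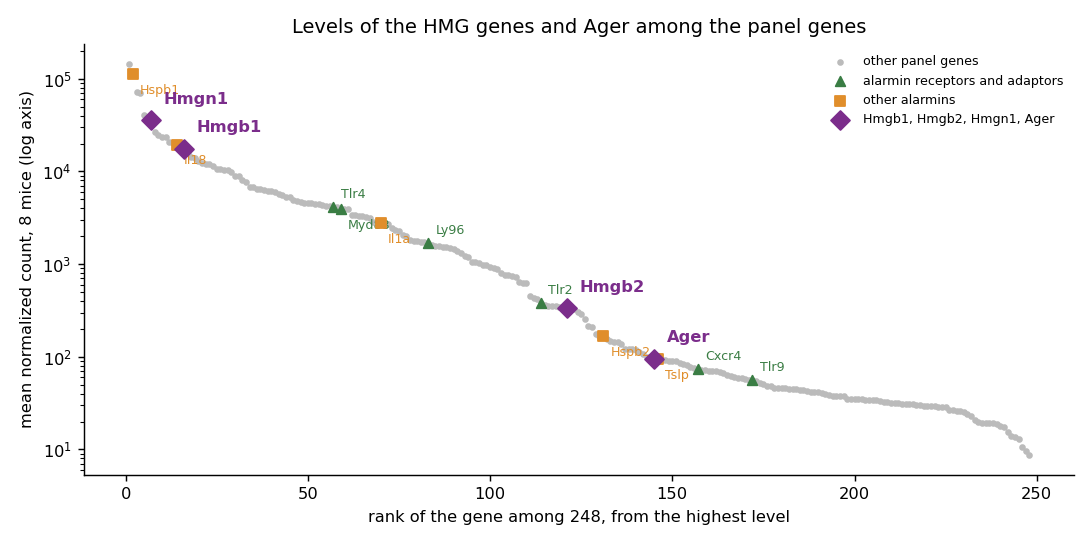
Mean normalized count over the 8 mice (vertical, log axis) of each of the 248 panel genes by rank from the highest level (horizontal). Diamonds mark Hmgn1 (rank 7), Hmgb1 (rank 16), Hmgb2 (rank 121) and Ager (rank 145), triangles the other receptors and adaptors of alarmins and squares the other alarmins.

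The order Hmgn1, Hmgb1, Hmgb2, Ager held in 8 of 8 mice. Over all mice the ranges of neighbours in this order did not overlap for any of the 3 pairs, so each step was larger than the spread between mice. Hmgn1 made up 3.13% and Hmgb1 1.56% of all recovered counts of the panel, against 0.0291% for Hmgb2 and 0.00837% for Ager. For Hmgb1 the reference annotation lists 13 pseudogenes named after it, of which 1 is transcribed, and the labels and methods name no probe sequence, so whether the probe also counted such copies was not tested. No pseudogene named after the other 3 genes was listed.

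Hmgb1, the best known alarmin of the family and a ligand of RAGE, stood at nearly the same level in every mouse. Its normalized count was 17122 in tributyrin mouse 9, 18089.5 in mouse 10, 18113 in mouse 11 and 18274 in mouse 12, against 17984 in vehicle mouse 5, 16616 in mouse 6, 17365 in mouse 7 and 17395 in mouse 8. The 3 tributyrin mice other than mouse 9 were above all vehicle mice, mouse 9 was below 3 of them, and the groups overlapped. The group means were 17899.6 ± 525 with tributyrin and 17339.8 ± 561 with vehicle (SD, n = 4 mice each). The log2 fold change was 0.046 for tributyrin over vehicle, as in all fold changes here (standard error 0.050, limma adjusted p = 0.698 over 248 genes), and its 95% interval corresponds to 0.952-fold to 1.12-fold.

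Hmgn1, the nucleosome-binding member, was likewise even across mice. Tributyrin mice 9 to 12 had normalized counts of 36815, 35268, 37061 and 34643, and vehicle mice 5 to 8 had 34993, 35643, 35675 and 34427. Tributyrin mice 9 and 11 were the highest of all, while tributyrin mouse 12 was lower than 3 of the 4 vehicle mice. The means were 35947 ± 1177 with tributyrin and 35184 ± 595 with vehicle (SD, n = 4 each), with a log2 fold change of 0.030 (standard error 0.048, limma adjusted p = 0.767). The 95% interval ran from 0.946-fold to 1.10-fold, and the interval of Hmgb1 was about as narrow.

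Hmgb2, the HMG-box relative of Hmgb1 that is known to be high in dividing cells, had close means and unequal spread. Tributyrin mice 9 to 12 had 411, 284, 336 and 313 normalized counts, and vehicle mice 5 to 8 had 333, 317, 333 and 348. Both the highest and the lowest mouse of the study were tributyrin mice, 9 and 10, and the vehicle mice lay between them. The means were 336 ± 54.4 with tributyrin and 333 ± 12.8 with vehicle (SD, n = 4 each). The log2 fold change was 0.0021 (standard error 0.11, limma adjusted p = 0.998), with a 95% interval of 0.839-fold to 1.20-fold, and its sign turned negative under median centring, quantile normalization, without tributyrin mouse 9 (-0.099) and under 5 other settings.

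Ager, the receptor gene, is best known from alveolar cells of the lung, and its count was low in the conjunctiva. It was 111 in tributyrin mouse 9, 101 in mouse 10, 95.3 in mouse 11 and 97.8 in mouse 12, against 105, 92.2, 86.7 and 74.6 in vehicle mice 5 to 8. Of the 4 vehicle mice 3 were below every tributyrin mouse, and vehicle mouse 5 was above all tributyrin mice but mouse 9, so the groups overlapped. The means were 101 ± 6.71 with tributyrin and 89.5 ± 12.5 with vehicle (SD, n = 4 each). The log2 fold change was 0.19 (standard error 0.11, limma adjusted p = 0.480), with a 95% interval of 0.959-fold to 1.35-fold. It was 0.26 without vehicle mouse 5 (limma unadjusted p = 0.0277, adjusted p = 0.303), 0.10 without vehicle mouse 8 and 0.045 with quantile normalization.

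**Figure D2:**
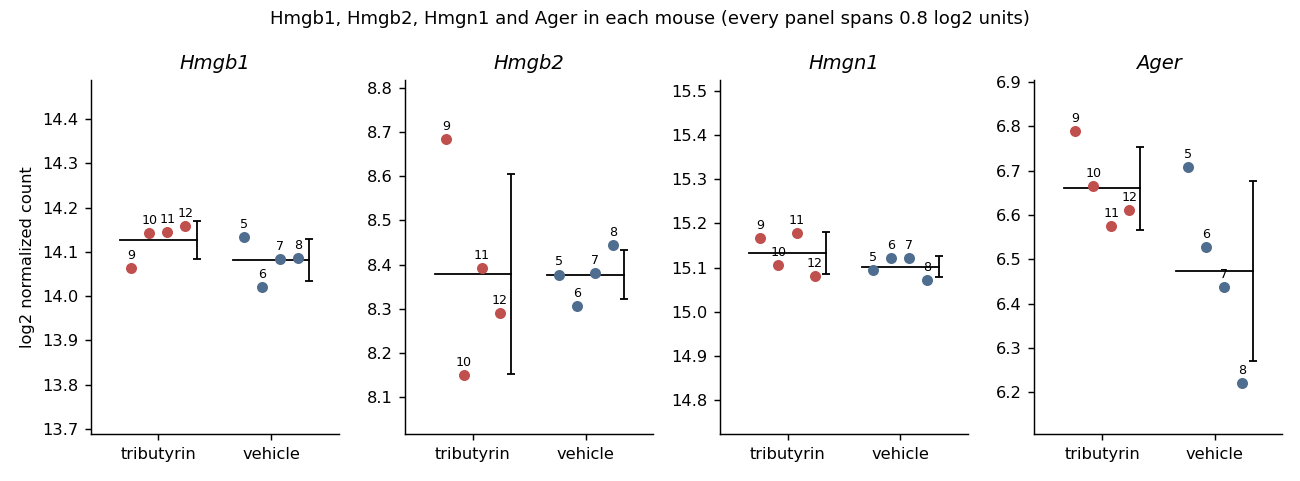
Log2 normalized count (vertical) of Hmgb1, Hmgb2, Hmgn1 and Ager in each tributyrin (left) and vehicle (right) mouse, with the mouse number above each point, the group mean as a line and the SD as a bar (n = 4). Every panel spans the same log2 range, so the narrow scatter of Hmgb1 and Hmgn1 and the wide scatter of Hmgb2 with tributyrin can be compared directly.

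None of the 4 genes differed between tributyrin and vehicle beyond the spread between mice. In the fit over the panel 0 of 248 genes passed an adjusted p of 0.05, which is 0% (limma; unadjusted, 31 genes or 12.5% had a p under 0.05, of which 18 were higher with tributyrin, 7.26%, and 13 lower, 5.24%), so the count of 0 of 4 says nothing particular about these genes. The lowest adjusted p of the panel was 0.0516 (limma), just above the threshold, and the panel count of 0 changed under other settings, as given below. The groups overlapped for each of Hmgb1, Hmgb2, Hmgn1 and Ager, where 7.26% of the panel genes had groups that did not overlap (3.23% higher with tributyrin and 4.03% lower). Two-sided exact permutation tests over all 70 assignments gave p = 0.229 for Hmgb1, p = 1 for Hmgb2, p = 0.314 for Hmgn1 and p = 0.143 for Ager, unadjusted, where the smallest p that 4 against 4 mice allow is 0.0286.

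The positive sign of the 4 fold changes was shared by most of the panel, where 177 genes (71.4%) lay above 0 with a median of 0.055. Near Ager's level, the 47 genes with a mean of 50 to 200 counts had a median log2 fold change of 0.17 and 35 of them were above 0, close to the 0.19 of Ager. The 28 genes whose mean reached 10000 counts had a median of 0.031, with 0.046 for Hmgb1 and 0.030 for Hmgn1 among them. The 18 genes from 200 to 500 counts had a median of 0.12, against 0.0021 for Hmgb2.

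**Figure D3:**
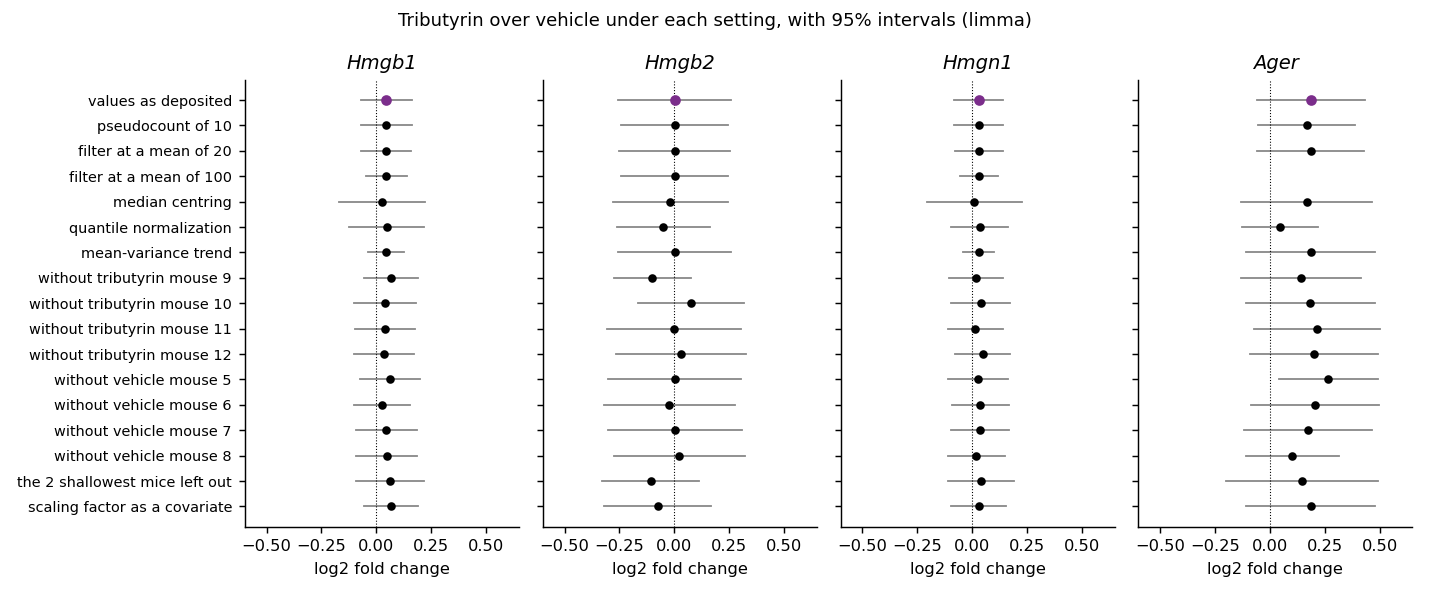
Log2 fold change (horizontal, tributyrin over vehicle) of each gene with its 95% limma interval under the values as deposited (top row) and each alternative (rows below). Hmgb1 and Hmgn1 stay within 0.011 to 0.068, Hmgb2 falls on both sides of 0, and Ager, which has no point under the filter at a mean of 100, lies between 0.045 and 0.26.

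The deposited values allowed the counts before scaling to be recovered, which sets the precision of each gene. Hmgn1 rested on 23628 to 48170 and Hmgb1 on 10989 to 23447 recovered counts per mouse, and the SD expected from counting alone was 0.0081 and 0.012 on the log2 scale with tributyrin and 0.0074 and 0.011 with vehicle. The observed SD was 0.047 with tributyrin and 0.024 with vehicle for Hmgn1, and 0.043 with tributyrin and 0.047 with vehicle for Hmgb1. The counting SD leaves out all variation between animals and in sample handling, and at this depth it is small beside any such variation. Over the 8 mice the SD was 0.039 for Hmgn1 and 0.048 for Hmgb1. The median was 0.077 for the 97 genes whose mean reached 1000 and 0.067 for the 28 whose mean reached 10000, the closer comparison. They had the 8th and 17th lowest SD of the 248 genes, a rank that also reflects level, since 73 genes had a mean under 50.

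Ager rested on 71 to 121 recovered counts with tributyrin and 69 to 129 with vehicle. Counting alone gives it an SD of 0.15 in either group, and the observed SD was 0.094 with tributyrin and 0.20 with vehicle. The exact Poisson 95% interval of tributyrin mouse 9, the highest, was 86.4 to 139.5 normalized counts and that of vehicle mouse 8, the lowest, was 58.1 to 94.4. Such intervals cover counting error only.

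Hmgb2 had the more uneven values with tributyrin. It rested on 253 to 370 recovered counts with tributyrin and 292 to 450 with vehicle, for an SD from counting of 0.083 and 0.076. The observed log2 SD was 0.23 with tributyrin and 0.056 with vehicle (n = 4 mice each). The highest and lowest tributyrin mice, 9 and 10, had exact Poisson 95% intervals of 363 to 464 and 255 to 316 normalized counts. Without tributyrin mouse 9, which had the fewest recovered counts of all mice, the SD with tributyrin was 0.12. The ratio of the SDs, tributyrin over vehicle, was 4.05, a value reached by 8 of the 248 genes, and 146 of the 248 had the larger SD with tributyrin. No test was made of this difference in spread.

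The levels of the alarmins against their receptor were read as ratios within a mouse, which the scaling of the mouse does not touch. These are ratios of counts from different probes, so their size depends on probe efficiency and only the comparison between groups is free of it. The denominator, Ager, rested on 69 to 129 recovered counts per mouse. The count of Hmgb1 was 177 ± 15.9 times that of Ager in tributyrin mice and 196 ± 27.3 times in vehicle mice (SD, n = 4 each). For Hmgn1 the ratio to Ager was 356 ± 23.8 with tributyrin and 398 ± 52.8 with vehicle, and for Hmgb2 it was 3.31 ± 0.401 and 3.78 ± 0.651. All 3 mean ratios were lower with tributyrin, and the groups overlapped for each. They share the Ager value of each mouse in the denominator and are not separate observations.

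**Figure D4:**
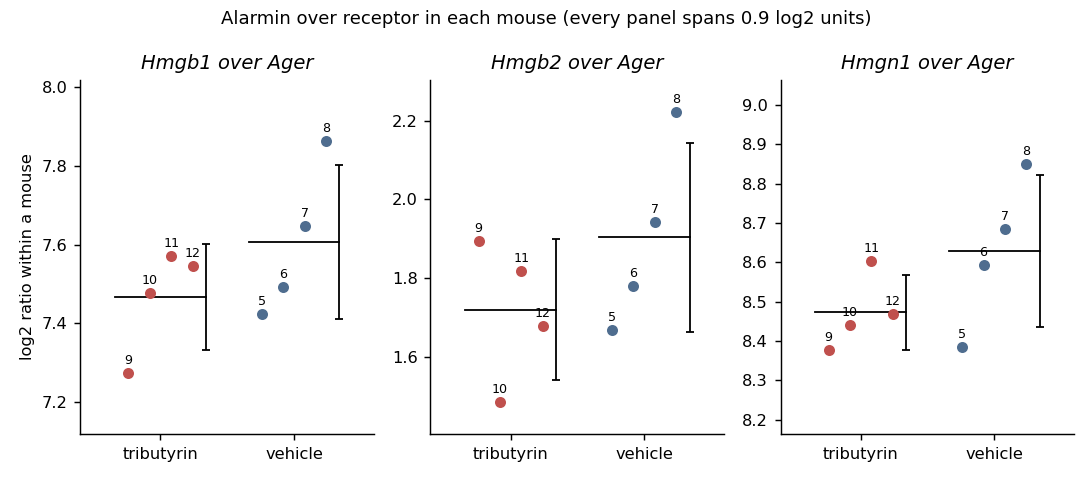
Log2 ratio of each alarmin to Ager within a mouse (vertical) in tributyrin (left) and vehicle (right) mice, with mouse numbers, group means as lines and SDs as bars (n = 4). Vehicle mouse 8 has the highest ratio in each panel and is the mouse with the lowest Ager count.

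The difference in the mean log2 ratio to Ager, tributyrin minus vehicle, was -0.14 for Hmgb1, -0.18 for Hmgb2 and -0.16 for Hmgn1. Vehicle mouse 8 set much of each, and without it the values were -0.055, -0.078 and -0.082. With quantile normalization, which changes ratios within a mouse, they were 0.0019, -0.095 and -0.011. As scores over these genes the differences were given no test. Among the alarmins themselves, the count of Hmgn1 was 2.01 ± 0.112 times that of Hmgb1 with tributyrin and 2.03 ± 0.0886 times with vehicle (SD, n = 4 each).

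No pair of the 4 genes had a correlation over the 8 mice that passed a test. Of the 6 pairs, Hmgb2 and Hmgn1 had the highest correlation of log2 values (Pearson r = 0.46, p = 0.262 by exact permutation of the pairings, 0.661 after adjustment over the 6 pairs, with a Spearman rho of 0.33, p = 0.428 and adjusted p = 0.840). It was 0.023 without tributyrin mice 9 and 10, the farthest from the median, and so rested on them. Hmgb1 and Hmgb2 had the lowest (r = -0.40, exact permutation p = 0.331, adjusted p = 0.661, and rho = -0.38, p = 0.360, adjusted p = 0.840), with r = -0.75 without vehicle mouse 6 and tributyrin mouse 12. Ager had r = 0.23 with Hmgb1 (p = 0.583), 0.12 with Hmgb2 (p = 0.775) and 0.44 with Hmgn1 (p = 0.281), by the same exact permutation over all pairings, and rho of 0.14 (p = 0.752), -0.095 (p = 0.840) and 0.21 (p = 0.619). Without the pair of mice farthest from the median of the HMG gene r was 0.22, -0.59 and 0.26 for these pairs, and all adjusted p were 0.661 or above. Hmgb1 and Hmgn1 had r = -0.18 (exact permutation p = 0.665, adjusted p = 0.775), rho = -0.24 (p = 0.582) and r = -0.027 without vehicle mouse 6 and tributyrin mouse 12. All values of a mouse share its scaling factor, and either group alone is too small for a correlation.

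The genes most like each of the 4 over the mice were sought among those with a mean of at least 100 counts, and are given as a description without a test. Ager was most like Creb1 (r = 0.88, n = 8 mice), Jun (0.81) and Mmp3 (0.80), of 143 candidates with a median r of 0.16. Creb1 and Jun encode transcription factors, and Mmp3 encodes stromelysin, a matrix metalloproteinase. Hmgb1 was most like Atf2 (0.87), Myc (0.83) and Nr3c1 (0.83), which encode further transcription factors, the last of them the glucocorticoid receptor. Hmgn1 was most like Tgfb1 (0.71), Ltb4r1 (0.61) and Hras1 (0.60). Hmgb2 was most like Il23r (0.72), Il15 (0.68) and Ptger1 (0.62). For Hmgb1, Hmgb2 and Hmgn1 the median over 142 candidates was -0.019, 0.018 and -0.087.

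Among the other receptors and adaptors through which alarmins act, 6 of 13 listed genes were measured, and none passed an adjusted p of 0.05 in either direction (limma). Their median log2 fold change was 0.051, against 0.055 over the panel. Tlr4, the receptor of lipopolysaccharide shared by HMGB1 and HMGN1, had 4203 ± 80.5 normalized counts with tributyrin and 4104 ± 68.1 with vehicle (SD, n = 4 each), a level well above that of Ager. Its co-receptor Ly96, which encodes MD-2, had 1621 ± 97.1 with tributyrin and 1744 ± 29.6 with vehicle, and the adaptor Myd88 had 4049 ± 283 and 3867 ± 299. These 3 genes had log2 fold changes of 0.034, -0.11 and 0.067.

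Tlr2, which senses bacterial lipopeptides, had 370 ± 27.8 counts with tributyrin and 397 ± 29.3 with vehicle (SD, n = 4 each; log2 fold change -0.10). Tlr9, an endosomal receptor of DNA, had 61.4 ± 7.03 with tributyrin and 50.7 ± 3.27 with vehicle, and its log2 fold change of 0.27 had the smallest p of the list (limma unadjusted p = 0.0195, adjusted p = 0.303). With quantile normalization it was 0.095. The Tlr9 groups overlapped, at 53.5 to 70.1 with tributyrin and 47.7 to 55.2 with vehicle. Cxcr4, the receptor of CXCL12, which HMGB1 can bind as a partner, had 79.0 ± 24.3 with tributyrin and 67.8 ± 11.7 with vehicle. Tributyrin mouse 10 was low for it, and the log2 fold change of 0.17 was 0.44 without it (limma unadjusted p = 0.0168, adjusted p = 0.195) and turned negative with quantile normalization.

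Of 11 other alarmins 5 were measured, with a median log2 fold change of -0.021 and none past the test. Hspb1, a small heat shock protein, was the second highest gene of the panel, with 110779.7 ± 8742 normalized counts with tributyrin and 113304 ± 9654 with vehicle (SD, n = 4 each). Il18, a cytokine of the interleukin 1 family, had 19417 ± 1373 and 19476 ± 2282, close to Hmgb1 in level. Il1a, an alarmin held in epithelial cells, had 2675 ± 156 with tributyrin and 2860 ± 282 with vehicle. Hspb2 had 169.6 ± 16.2 and 164 ± 18.2, and Tslp, an epithelial cytokine, 93.0 ± 11.5 and 94.1 ± 7.95. The log2 fold changes lay between -0.093 for Il1a and 0.050 for Hspb2, and those of Tslp, Hspb1, Hspb2 and Il18 changed sign under some settings.

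Of 39 listed signalling genes below these receptors 27 were measured, and none passed the test, with 22 log2 fold changes above 0 and 5 below it and a median of 0.047. Cdc42, a small GTPase and the highest gene of the panel, differed by 0.0068 on the log2 scale (limma adjusted p = 0.939). The smallest p was that of Mapkapk5, a kinase below p38, among those above 0 (0.17, limma adjusted p = 0.460) and of Fos, an immediate-early transcription factor, among those below 0 (-0.43, limma adjusted p = 0.480). Fos was at -0.20 without tributyrin mouse 12 and at -0.12 with both shallowest mice left out. Mapk14, which encodes p38 alpha and is named here after its values were seen, was the only gene of this list whose groups did not overlap (3.23% of the panel in this direction), with 8822 to 9210 counts with tributyrin and 8727 to 8774 with vehicle. Its difference was 0.047 on the log2 scale (limma adjusted p = 0.673). Over the alternative settings the difference ran from 0.028 to 0.17, and the lowest limma adjusted p among them was 0.0647.

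Of 20 cytokine and effector genes that NF-kB induces 18 were measured, 11 of them with a mean under 50 counts, and none passed the test. Their median was 0.17, with 14 above 0 and 4 below it. Mmp3, the highest, had 2932 ± 612 counts with tributyrin and 1994 ± 521 with vehicle (SD, n = 4 each), a log2 fold change of 0.57 (limma unadjusted p = 0.0339, adjusted p = 0.366). Il12a, which encodes a subunit of interleukin 12, had 21.8 ± 2.69 with tributyrin and 29.4 ± 2.91 with vehicle, and its groups did not overlap (4.03% of the panel in this direction, log2 fold change -0.44, limma adjusted p = 0.116).

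**Figure D5:**
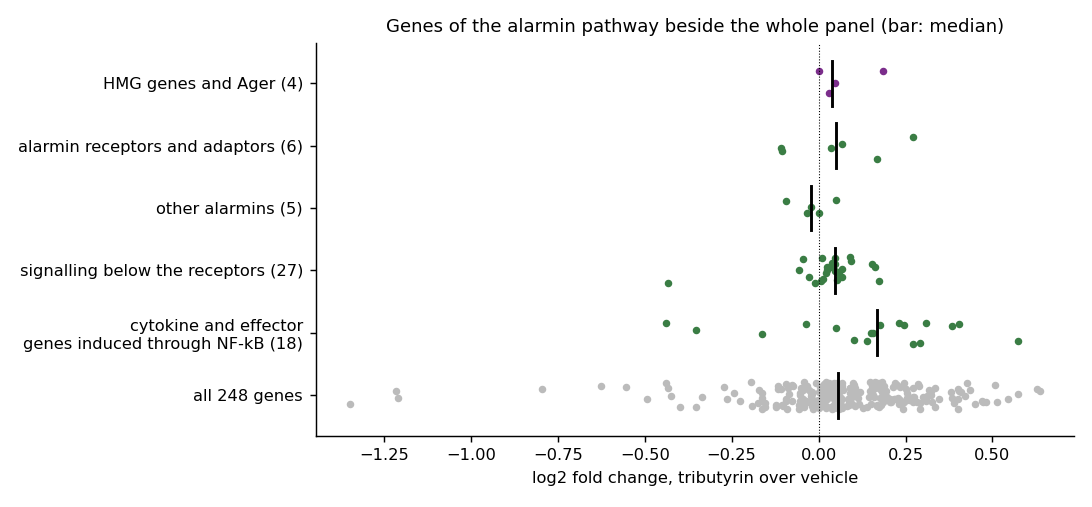
Log2 fold change (horizontal, tributyrin over vehicle) of each gene, in rows for the HMG genes and Ager, the 4 lists of the alarmin pathway and all 248 panel genes, with the median of each row as a bar and vertical scatter for display only. The HMG genes lie between 0.0021 and 0.046, close to 0 within the spread of the panel, and Ager at 0.19.

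Recovered totals were 742068 to 1344723 counts per mouse with tributyrin and 1035041 to 1494519 with vehicle, and the lowest belonged to tributyrin mice 9 and 12. None of 12 listed markers of conjunctival epithelium and goblet cells is a row of the table, so the labelled tissue was not checked by them. Of macrophage and monocyte markers 8 of 11 were measured, with a median log2 fold change of 0.11, 6 above 0 and 2 below it. Their summed counts were 22438 to 28287 with tributyrin and 23871 to 28643 with vehicle. Arg1, with a mean of 24810 counts over the 8 mice and a log2 fold change of -0.036, made up most of these sums. The sums therefore say little about the other markers of the list. For T and B cells 5 of 12 were measured (222 to 267 with tributyrin and 253 to 288 with vehicle, median 0.018). For neutrophils and mast cells 3 of 9 were measured (205 to 234 with tributyrin and 181 to 189 with vehicle, with no overlap of these sums, median 0.28). Alox5, with a mean of 148 counts, made up most of the last sums, and 2 of these 3 genes had a mean under 50. For each of the 3 genes alone the groups overlapped. Ccr7 was the only one measured of 4 dendritic cell markers, with 13.6 to 20.3 counts with tributyrin and 9.63 to 11.9 with vehicle. Its groups did not overlap (3.23% of the panel in this direction), with a log2 fold change of 0.64 (limma adjusted p = 0.0752). Its mean of 14.1 counts was near the lowest mean of the panel, 8.66. Myc was the only one measured of 5 for dividing cells (4349 to 5847 with tributyrin and 4259 to 4968 with vehicle). Of the 5 listed for alveolar epithelium, Ager itself was the only one measured. No marker passed the test, and the part of cell composition in the values of the HMG genes and Ager was not tested.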

How the data were processed

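Conjunctival RNA of 4 tributyrin and 4 vehicle mice was counted on the nCounter platform. The authors scaled the counts by the geometric mean of reference genes, named ROSALIND for the analysis, and deposited log2 normalized counts of 248 genes, 1 column per mouse. No source used here says how background was treated. Counts before scaling were recovered from the step of each mouse (whole multiples for 100% of genes, tolerance 0.001).

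Limma 3.58.1 in R 4.3.3 (lmFit, eBayes, group as the only term) was fitted to all 248 genes as deposited, with Benjamini-Hochberg adjustment, after a test on simulated data. The sources name no model for these counts. Ratios and correlations used Python 3.11.15, NumPy 2.4.6 and SciPy 1.17.1. Promoters came from RefSeq (GRCm38.p6), and all 4 genes matched by gene ID; of 2 windows for Hmgb1 the outer was used. The genes and lists were chosen with earlier results of these data known. Beyond the 4 genes, those named are all measured receptors and other alarmins, the highest gene and the smallest p in each direction of the longer lists, and the 3 genes most like each of the 4.

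Alternatives were quantile normalization, median centring, a pseudocount of 10, filters on low means at 20 and 100, an exact rank test, a variance trend in limma, and a fit without each mouse. The mice are numbered as in the labels, which do not state separate cages or batches. The limma p-values set each group difference against the spread between mice within the groups, after eBayes drew each gene's variance toward a value shared by the panel. The standard errors and intervals of an even gene therefore also reflect the spread of other genes. With the variance trend the limma unadjusted p was 0.241 for Hmgb1 and 0.357 for Hmgn1, against 0.389 and 0.544 without it. Any cage or batch difference between the groups could not be told apart from the treatment.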

Additional observations from a re-analysis of the deposited data

Results flagged for a closer look

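A single mouse stood far from the rest of its group of 4 in 3 of 48 groups, where chance gives about 2.4. For Hmgb1 the low mouse was tributyrin mouse 9 (log2 value 14.06, others 14.14 to 14.16), and it had the fewest recovered counts, at 742068. Tributyrin mouse 10 was low for Cxcr4 (5.42, others 6.47 to 6.57). Vehicle mouse 6 was high for Hspb1 (16.96, others 16.70 to 16.74).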

How the results depend on the processing

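No setting brought Hmgb1, Hmgb2, Hmgn1 or Ager, or any gene of the 4 pathway lists, past an adjusted p of 0.05. Hmgb1 lay between 0.026 and 0.068, Hmgn1 between 0.011 and 0.048, and Ager between 0.045 and 0.26 on the log2 scale. Hmgb2 (0.0021) was -0.018 with median centring, -0.050 with quantile normalization, -0.038 as a difference of medians for the exact rank test (exact p = 0.886), -0.11 with the 2 shallowest mice left out, -0.076 with the scaling factor as a covariate, and -0.099 to 0.078 without each mouse. The settings on depth were chosen after seeing the data. The filter at a mean of 100 leaves out Ager. The panel count of 0 genes became 7 under limma's mean-variance trend, 6 after median centring, 6 after a pseudocount of 10, 6 and 7 once genes under a mean of 20 and of 100 were left out, and 0 to 6 without each mouse (4 when tributyrin mouse 11 was left out, and 6 and 1 when it was vehicle mouse 8 and vehicle mouse 5). Of these genes 1 was higher with tributyrin after median centring and 1 without tributyrin mouse 11. Under the trend, the pseudocount, both filters and without vehicle mouse 5 or 8, 0 were higher, and all the rest were lower. With the values as deposited the lowest adjusted p of the panel was 0.0516 (limma), just above the threshold. What moved the count under each setting was not tested. The log2 ratio differences to Ager spanned -0.20 to -0.055 for Hmgb1, -0.26 to -0.078 for Hmgb2 and -0.24 to -0.082 for Hmgn1 without each mouse, and with quantile normalization they were 0.0019, -0.095 and -0.011.

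Among 334 alternative values for named genes 34 had the opposite sign, and each missed the threshold. Beside those of Hmgb2 above, with quantile normalization these were Tlr4 (-0.0077), Cxcr4 (-0.029), Hspb2 (-0.0038), Il18 (-0.029) and Mapkapk5 (-0.018), and with median centring Il18 (-0.019) and Cdc42 (-0.013). With the 2 shallowest mice left out they were Myd88 (-0.019), Cxcr4 (-0.070), Tslp (0.059) and Hspb2 (-0.062). With the covariate they were Myd88 (-0.0047), Cxcr4 (-0.039), Tslp (0.010) and Il18 (-0.027). Without each mouse Tslp spanned -0.089 to 0.053, Hspb1 -0.080 to 0.026, Hspb2 -0.026 to 0.099, Il18 -0.056 to 0.072 and Cdc42 -0.0035 to 0.014. No paired analysis was made, because the labels give no pairing between tributyrin and vehicle mice. Depth limits the precision of the low genes, among them Ager with 69 to 129 recovered counts per mouse.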
